A study of Mus musculus with 46 samples.

Results

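The genes described here encode steroid-metabolising dehydrogenases and reductases of the liver. Of 10 genes listed, 9 had a probe set under their own symbol and are described (Hsd3b2, Hsd3b3, Hsd3b5, Akr1d1, Akr1c6, Hsd17b2, Hsd17b6, Hsd17b11 and Hsd17b13), out of 21335 genes named on the array. Srd5a1 was not analysed here. Each of the 9 had 1 probe set of that symbol alone, and that probe set was used.

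Liver is the main site at which steroid hormones are inactivated and bile acids are made. Hydroxysteroid dehydrogenases oxidise a hydroxyl group of a steroid to a ketone or reduce it back, which switches androgens and oestrogens between more and less active forms. Ring reductases, such as that encoded by Akr1d1, saturate the steroid ring, a step in both hormone clearance and bile acid synthesis. Several enzymes of these families differ between male and female mouse liver, under the control of the growth hormone pattern.

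RNA of whole liver from hairless SKH:QS mice was hybridised to Affymetrix whole-transcript arrays, with 1 array per mouse and 46 arrays in all. A virgin experiment and a pregnant experiment were run separately, the latter at about day 17 of gestation. Each experiment had 4 arms, which were untreated mice, mice given a sunscreen formulation free of metal oxide particles (formulation), mice given sunscreen with 68ZnO microparticles (micro ZnO) and mice given sunscreen with 68ZnO nanoparticles (nano ZnO). Every group held 6 mice, except untreated pregnant mice and pregnant micro ZnO mice with 5 each. The treated mice received sunscreen on the back 6 times over 4 days, and liver was taken on day 5. Mice wore collars that limited licking of the sunscreen, were housed singly, and in every group were injected with ketamine and Xylase, an anaesthetic pair, before they were killed. The labels call the mice biological replicates.

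Values are log2 signals after robust multi-array averaging (RMA), so a difference of 1 is a doubling. They came without detection calls, and precision is limited by how many arrays each group has. Array medians lay between 4.66 and 4.90 in the virgin experiment and between 3.98 and 4.12 in the pregnant one, so deposited levels were compared only within an experiment. Hepatocyte markers, with 8 of 10 measured, had a mean signal between 12.24 and 12.80 on every array. Of 8 markers of steroid-producing cells, Star, Cyp11a1, Cyp11b1, Cyp21a1 and Hsd3b1 had mean signals at the 32.4, 15.5, 22.4, 29.1 and 12.9 percentile of the probe sets tested, and Nr5a1, Fdx1 and Cyp17a1 at the 63.7, 91.9 and 98.2 percentile. Pregnant micro ZnO arrays 3 and 4 stood apart on the first principal component, at -47.1 and -31.2 against 3.20 to 13.2 for the other arrays of that group.

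Hsd3b2, Hsd3b3 and Hsd3b5 are neighbours in a cluster of Hsd3b genes on chromosome 3. Hsd3b2 lies between Hsd3b5 and Hsd3b3, and Hsd3b6 follows Hsd3b3. Hsd17b13 and Hsd17b11 are likewise adjacent coding genes, on chromosome 5. The 3 Hsd3b genes were lower in every virgin sunscreen arm, as given below, but only Hsd3b2 and Hsd3b3 of them were called between sunscreen arms. Over the 46 arrays with experiment means removed, Pearson's r was 0.80 for Hsd3b2 with Hsd3b3 and 0.61 for Hsd3b2 with Hsd3b5. For Hsd3b3 with Hsd3b5 it was 0.45. The 250 bases before the start sites of these 3 genes are printed, 5′ to 3′, from RefSeq on GRCm38.p6. All 3 lie on the minus strand, Hsd3b2 at chr3:98724544-98724793, Hsd3b3 at chr3:98763129-98763378 and Hsd3b5 at chr3:98645535-98645784. Hsd3b3 has 2 annotated start sites and the upstream one is shown. Capitals mark the longest run shared by the Hsd3b3 and Hsd3b5 windows.
Hsd3b2: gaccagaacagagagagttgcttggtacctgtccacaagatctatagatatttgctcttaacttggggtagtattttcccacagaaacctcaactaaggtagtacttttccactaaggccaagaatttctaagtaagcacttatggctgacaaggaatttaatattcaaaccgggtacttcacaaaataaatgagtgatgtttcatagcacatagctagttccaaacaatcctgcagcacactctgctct
Hsd3b3: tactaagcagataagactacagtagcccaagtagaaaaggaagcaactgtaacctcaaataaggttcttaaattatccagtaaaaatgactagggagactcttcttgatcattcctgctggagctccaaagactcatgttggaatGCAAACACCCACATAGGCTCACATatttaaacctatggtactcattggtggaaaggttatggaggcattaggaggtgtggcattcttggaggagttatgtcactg
Hsd3b5: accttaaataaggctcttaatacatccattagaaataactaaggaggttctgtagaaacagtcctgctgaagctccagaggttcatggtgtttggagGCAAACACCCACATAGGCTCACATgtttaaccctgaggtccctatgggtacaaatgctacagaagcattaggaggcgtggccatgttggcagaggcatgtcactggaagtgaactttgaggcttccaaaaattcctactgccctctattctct
The shared run is 24 bases long and begins at position -105 from the start of Hsd3b3 and at -153 from that of Hsd3b5. The longest run in any other pair of the 8 members with a window was 10 bases, between Hsd3b2 and Akr1c6. Aligned bases were 75.9% identical between Hsd3b3 and Hsd3b5, and 70.3% between Hsd3b2 and Hsd3b5. Hsd3b2 and Hsd3b3 were 63.7% identical, within the range of 56.8% to 68.0% that the same alignment gave for all other pairs, most of them of unrelated genes. Near-identical copies in this cluster can share probes, and how far the 3 probe sets read each other's transcripts is not known from these values.

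The short motifs below were looked for on both strands, none of them contained in another, in windows from 250 bases before to 50 bases after the start. They were TTCNNNGAA, the core read by STAT factors, TTATGTAA, read by proline- and acid-rich clock output factors, and CACGTG, the E-box. Of the 10 member windows, 0 held any of the 3. Over 32851 windows of the same length, 8.30% held TTCNNNGAA, 0.938% held TTATGTAA and 7.15% held CACGTG. These letters are not in these windows, and nothing is drawn from that about the factors.

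In virgin mice, the Hsd3b genes, Akr1c6 and Hsd17b2 were lower in every sunscreen arm than in untreated mice, while Akr1d1, Hsd17b6 and Hsd17b13 passed the test in none. With the formulation, limma called 6 of the 9 members, all lower, where 26.5% of 23410 probe sets were called and 15.0% were called lower. With micro ZnO it called 5, all lower, against 4.43% of probe sets called and 2.80% called lower. With nano ZnO it called the same 5, against 11.9% called and 7.18% called lower. The median change of the 9 members was -0.43, -0.47 and -0.35 in the formulation, micro ZnO and nano ZnO arms, where the median over all probe sets was 0.03, 0.01 and 0.02. All 3 comparisons share the untreated mice. The interquartile range of an array's log2 values was 2.90 to 3.09 in untreated virgin mice and 2.76 to 2.89 with the formulation, without overlap. Array medians of these groups were 4.66 to 4.77 and 4.78 to 4.90. With the interquartile range as a covariate 179 probe sets were called with the formulation, in place of 6203.

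**Figure D1:**
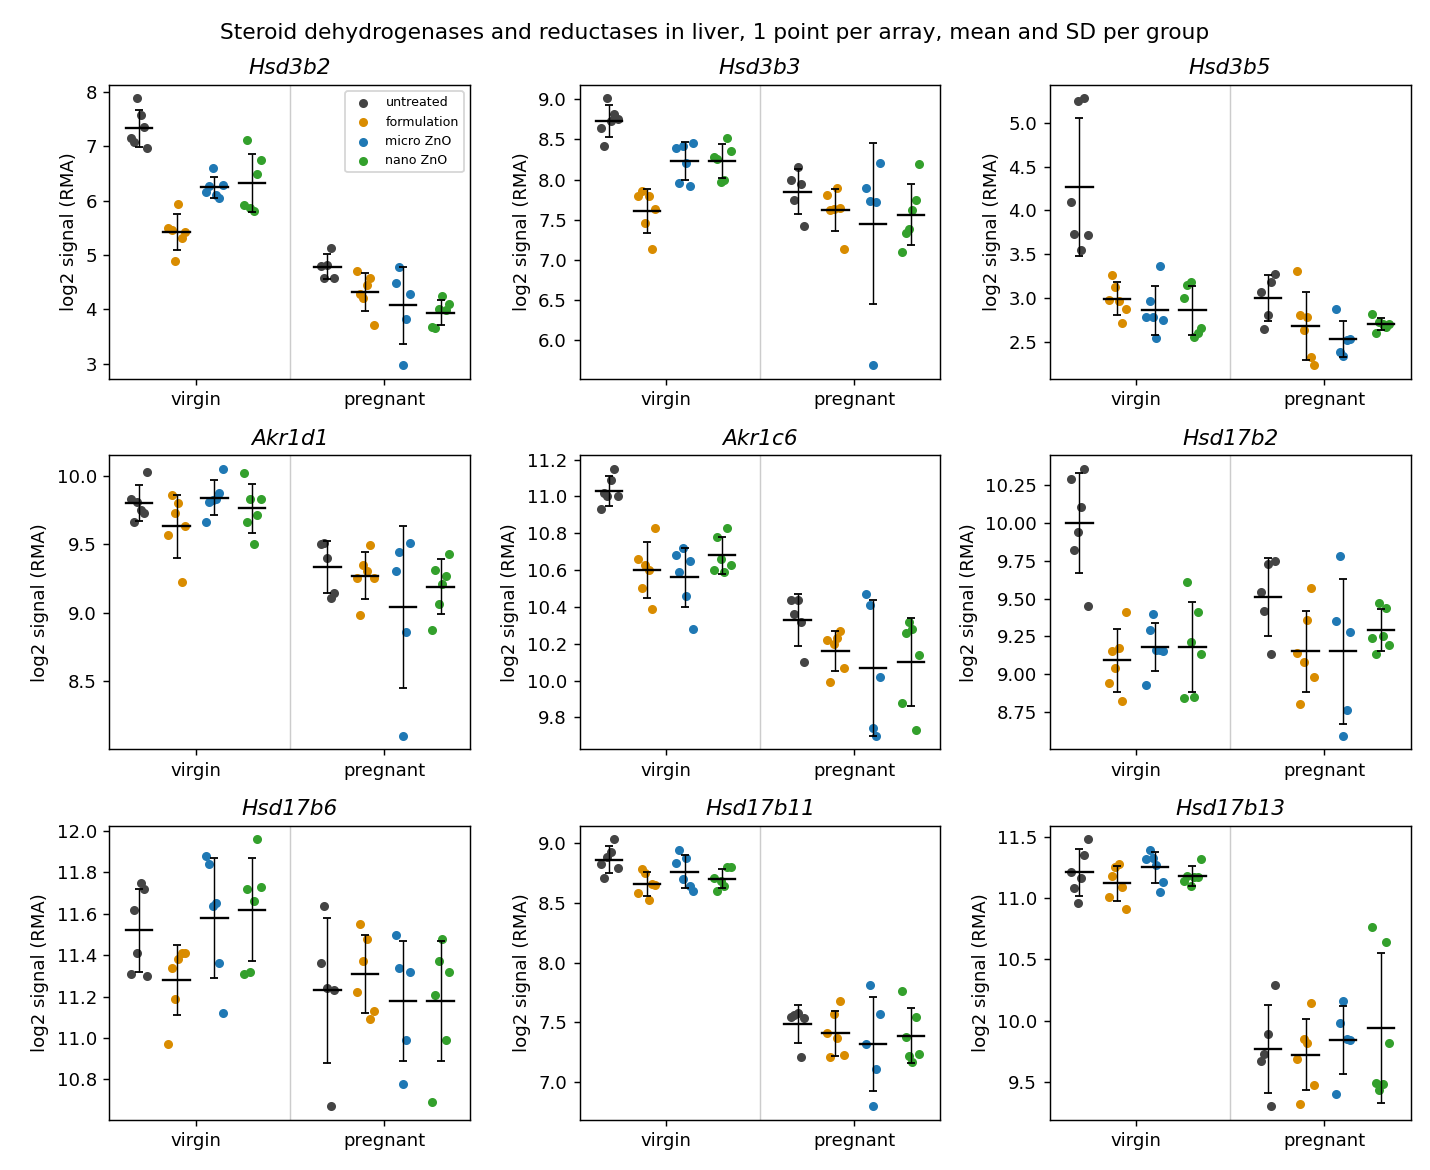
Log2 signal (vertical axes, each with its own range) of the 9 genes on each array, by experiment and arm, with the group mean and SD as bars; 1 point is 1 mouse. Untreated virgin mice lie above the treated virgin mice for Hsd3b5 and Akr1c6 with no overlap, and levels are to be compared only within an experiment.

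Hsd3b2 belongs to the family that oxidises hydroxysteroids to ketosteroids, and it showed the largest fall of the 9 members with the formulation. Its signal in untreated virgin mice had a lowest value of 6.97, a median of 7.25 and a highest value of 7.88. With the formulation the lowest was 4.89, the median 5.44 and the highest 5.93. All 6 formulation mice lay below all untreated mice, a change of -1.91 ± 0.19 (SE, n = 6 and 6), or 3.77-fold lower (limma, adjusted p = 7.11e-07).
With micro ZnO, Hsd3b2 ran from 6.05 to 6.59 with a median of 6.21, also without overlap with untreated mice. The change was -1.09 ± 0.19 (limma, adjusted p = 0.00148). With nano ZnO it ran from 5.80 to 7.11 with a median of 6.20, and 1 mouse reached into the untreated range. There the change was -1.01 ± 0.19 (limma, adjusted p = 0.00160). The nano ZnO mice were the most spread of the virgin groups, with an SD of 0.54 against 0.19 to 0.34 in the other arms.

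Hsd3b3, its neighbour and close relative, followed the same order of arms. Untreated virgin mice had signals from 8.42 to 9.01 (median 8.74), and formulation mice from 7.14 to 7.86 (median 7.71). The groups did not overlap, and the change was -1.11 ± 0.12 (limma, adjusted p = 2.71e-06), or 2.17-fold lower. With micro ZnO the range was 7.92 to 8.46 and with nano ZnO 7.97 to 8.51, each overlapping the lowest untreated mouse. Both changes were -0.50 ± 0.12 (limma, adjusted p = 0.0216 with micro ZnO and 0.0106 with nano ZnO). The micro ZnO call was lost without micro ZnO array 5 (-0.44, adjusted p = 0.0556) or untreated array 3 (-0.44, adjusted p = 0.0573). With the interquartile range of each array's values as a covariate both calls were lost (-0.42 and -0.40, limma, adjusted p = 0.0852 and 0.0888).

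Hsd3b5, a ketosteroid reductase best known from male mouse liver, was dim, with a mean signal at the 16.4 percentile of the probe sets tested. Its untreated virgin values were 4.09, 3.73, 5.25, 3.55, 5.28 and 3.72 in arrays 1 to 6, so arrays 3 and 5 lay well above the other 4. The treated virgin values ran from 2.71 to 3.26 with the formulation, from 2.54 to 3.37 with micro ZnO and from 2.55 to 3.18 with nano ZnO. No treated mouse of these arms reached the lowest untreated one. The changes were -1.28 ± 0.23, -1.41 ± 0.23 and -1.42 ± 0.23 (limma, adjusted p = 0.000461, 0.000938 and 0.000505). They are differences from an untreated mean of 4.27, which arrays 3 and 5 raised above the untreated median of 3.91. The medians of the 3 arms were 2.97, 2.78 and 2.83. The SD was 0.79 in untreated mice and 0.19, 0.28 and 0.28 in the arms.

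Akr1c6, an aldo-keto reductase that interconverts androgens and oestrogens at the carbon that Hsd17b enzymes also act on, fell by less but evenly. Untreated virgin mice had signals from 10.93 to 11.15 (median 11.01). Formulation mice ran from 10.39 to 10.83, micro ZnO mice from 10.28 to 10.72 and nano ZnO mice from 10.59 to 10.83. Each arm lay wholly below the untreated mice. The changes were -0.43 ± 0.08, -0.47 ± 0.08 and -0.35 ± 0.08 (limma, adjusted p = 0.000459, 0.000987 and 0.00516). With the array interquartile range as a covariate the formulation value was -0.44 ± 0.11 (limma, adjusted p = 0.0549).

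Hsd17b2 oxidises oestradiol and testosterone to their less active ketones. Its untreated virgin signals ran from 9.45 to 10.36 with a median of 10.02. With the formulation they ran from 8.82 to 9.41, with micro ZnO from 8.93 to 9.40 and with nano ZnO from 8.84 to 9.61. The first 2 arms did not overlap untreated mice, and 1 nano ZnO mouse did. The changes were -0.91 ± 0.14, -0.82 ± 0.14 and -0.82 ± 0.14 (limma, adjusted p = 0.000101, 0.00107 and 0.000598), so the arms lay close together.

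Hsd17b11, a lipid-droplet dehydrogenase that acts on androgen metabolites, was lower with the formulation by a small margin (-0.20 ± 0.07, adjusted p = 0.0344), with overlapping groups. That call was lost after a further quantile normalization (-0.06, adjusted p = 0.565) and without any 1 of 7 of the 12 arrays (formulation arrays 1, 4, 5 and 6 and untreated arrays 3, 4 and 5), with values from -0.20 to -0.17. The values were -0.10 ± 0.07 with micro ZnO and -0.15 ± 0.07 with nano ZnO (limma, adjusted p = 0.451 and 0.145).

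The remaining members did not pass the test in any virgin arm. Akr1d1, the ring reductase of bile acid and steroid hormone metabolism, had changes of -0.17 ± 0.10, 0.04 ± 0.10 and -0.04 ± 0.10 in the formulation, micro ZnO and nano ZnO arms. Hsd17b6, which oxidises androstanediols, had changes of -0.24 ± 0.13, 0.07 ± 0.13 and 0.10 ± 0.13. With a score of clock genes as a covariate its formulation value was -0.50 ± 0.12 and passed the test (limma, adjusted p = 0.0142), and both particle values were -0.44 and did not pass it. Hsd17b13, a liver-enriched lipid-droplet protein, had changes of -0.09 ± 0.08, 0.04 ± 0.08 and -0.03 ± 0.08. With the formulation their 95% confidence intervals reached down to -0.37 for Akr1d1, -0.49 for Hsd17b6 and -0.26 for Hsd17b13.

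Counted by overlap, 5 members with the formulation, 4 with micro ZnO and 2 with nano ZnO lay wholly below untreated virgin mice. Groups without overlap made up 9.50%, 3.31% and 4.96% of all probe sets in the same comparisons. A score of the 16 measured clock genes, the mean of their centred values with the sign of Arntl, Clock, Nfil3 and Cry1 turned, also moved with the arms. It was -0.57 ± 0.11 (SD) in untreated virgin mice, -0.11 ± 0.33 with the formulation, 0.31 ± 0.37 with micro ZnO and 0.37 ± 0.11 with nano ZnO. With that score as a covariate, 7 members were called with the formulation, the 6 above and Hsd17b6, and 0 with micro ZnO or nano ZnO. Over all probe sets the same fit called 2365, 20 and 6 in the formulation, micro ZnO and nano ZnO arms. Without the score it was 6203, 1036 and 2796. So few probe sets were called in the particle arms with the score that 0 member calls is near the background there. With the score, Hsd3b2 changed by -0.97 ± 0.32 and -0.89 ± 0.33 in these 2 arms (limma, adjusted p = 0.321 and 0.389). Hsd3b3 changed by -0.19 ± 0.19 and -0.16 ± 0.20 (limma, adjusted p = 0.831 and 0.845). Akr1c6 had -0.48 ± 0.13 and -0.36 ± 0.14, and Hsd17b2 -0.72 ± 0.23 and -0.72 ± 0.24, with larger standard errors than before.

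Markers of other cell types moved too. The mean log2 level of 8 endothelial markers was lower in all 3 virgin sunscreen arms, with differences of -0.29, -0.34 and -0.35 and ranges of 6.30 to 6.49 in untreated mice and 5.89 to 6.23 over the treated ones (exact permutation test, two-sided, adjusted p = 0.0130 each over 48 tests). That of 8 neutrophil markers was higher with the formulation (0.59) and nano ZnO (0.60), at 4.25 to 5.57 against 4.01 to 4.08 in untreated mice (exact permutation test, adjusted p = 0.0130), and differed by 0.15 with micro ZnO (adjusted p = 0.125). That of 8 stellate cell markers was lower with micro ZnO (-0.20, adjusted p = 0.0173) and that of 5 cholangiocyte markers higher with the formulation (0.17, adjusted p = 0.0130; exact permutation tests). The mean of the 8 markers of steroid-producing cells was higher in all 3 arms, by 0.15, 0.20 and 0.19 (exact permutation test, adjusted p = 0.0240, 0.0130 and 0.0130). Of the single markers limma called 1 higher in each arm, and 1 lower with the formulation. Among them Cyp17a1, a steroid hydroxylase that is also on the list of female-biased genes, rose by 0.89 ± 0.18, 1.53 ± 0.18 and 1.27 ± 0.18 (limma). Fdx1 had lower means of 8.33, 8.57 and 8.63, against 8.81 in untreated mice. With the median of the markers in place of the mean, the stellate call and these 3 calls were lost. Hepatocyte markers differed by 0.09, 0.08 and 0.07 in their mean (exact permutation test, adjusted p = 0.0875, 0.0390 and 0.104) and by 0.10, 0.12 and 0.17 in their median (adjusted p = 0.0130, 0.0378 and 0.0130). Of these 8 markers limma called 2, 1 and 2 higher and 0 lower. The median change per marker was -0.01, 0.01 and 0.03. Hpx had means of 13.38, 13.42 and 13.35 against 13.03 in untreated mice, and Tat 12.71, 12.61 and 12.65 against 12.20. Fga had 10.02, 9.88 and 9.71 against 10.04. The part of any of these marker lists in the members' changes was not tested. In whole liver, fewer cells of a type and less RNA per cell cannot be told apart.

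**Figure D2:**
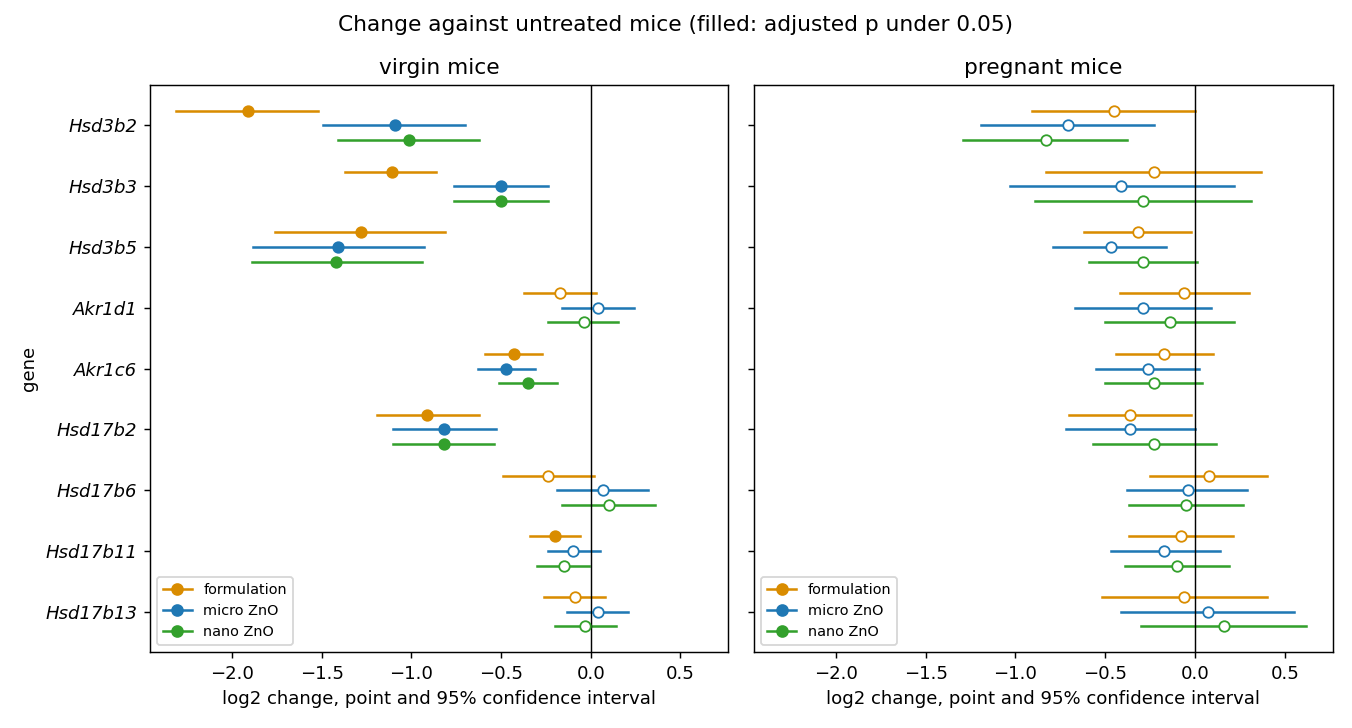
Log2 change of each gene against untreated mice of the same experiment (horizontal axis) with its 95% confidence interval, for the 3 sunscreen arms; filled points passed an adjusted p of 0.05. In virgin mice 5 genes are filled in all 3 arms and Hsd17b11 with the formulation alone, and in pregnant mice no point is filled.

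The arms were then compared with each other in virgin mice, to ask what the particles added to the formulation. Hsd3b2 and Hsd3b3 were higher with either particle sunscreen than with the formulation alone, and no other member passed the test. With the clock score as a covariate Akr1d1 was called too, at 0.36 ± 0.10 with micro ZnO against formulation (limma, adjusted p = 0.0286). For micro ZnO against formulation, limma called 2 of 9 members, both higher, where 6.83% of probe sets were called and 5.14% called higher. For nano ZnO against formulation it again called those 2, where 3.25% were called and 2.52% called higher.

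Hsd3b2 was 0.82 ± 0.19 higher with micro ZnO than with the formulation (limma, adjusted p = 0.0114), and every micro ZnO mouse lay above every formulation mouse. With nano ZnO it was 0.90 ± 0.19 higher (limma, adjusted p = 0.0108), and 3 of 6 nano ZnO mice lay above all formulation mice. Hsd3b3 was 0.61 ± 0.12 higher with micro ZnO and 0.61 ± 0.12 higher with nano ZnO (limma, adjusted p = 0.00469 and 0.00809), with no overlap in either comparison. Groups without overlap made up 3.77% and 1.82% of probe sets in these 2 comparisons.

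Array width differed between these arms, with an interquartile range of the log2 values from 2.76 to 2.89 on formulation arrays and from 2.84 to 2.99 on particle arrays. With it as a covariate neither gene was called. The differences were then 0.73 and 0.82 for Hsd3b2 (limma, adjusted p = 0.117 and 0.0693) and 0.50 and 0.52 for Hsd3b3 (limma, adjusted p = 0.0827 and 0.0638), in the micro ZnO and nano ZnO arms. In a fit of nano ZnO and formulation mice alone the Hsd3b2 value was 0.90 (limma, adjusted p = 0.0529).

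The third member of the cluster, Hsd3b5, was -0.12 ± 0.23 and -0.13 ± 0.23 with micro ZnO and nano ZnO against formulation, with 95% confidence intervals from -0.60 to 0.35 and from -0.61 to 0.34. Akr1c6 differed by -0.04 and 0.08 and Hsd17b2 by 0.09 and 0.09 in these comparisons. Nano ZnO against micro ZnO gave no call among the 9 members or among all probe sets (limma, 0 and 0%), and 0 members had an unadjusted p under 0.05. The interval of that difference was -0.32 to 0.47 for Hsd3b2 and -0.26 to 0.26 for Hsd3b3, so differences within those bounds could not be resolved.

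**Figure D3:**
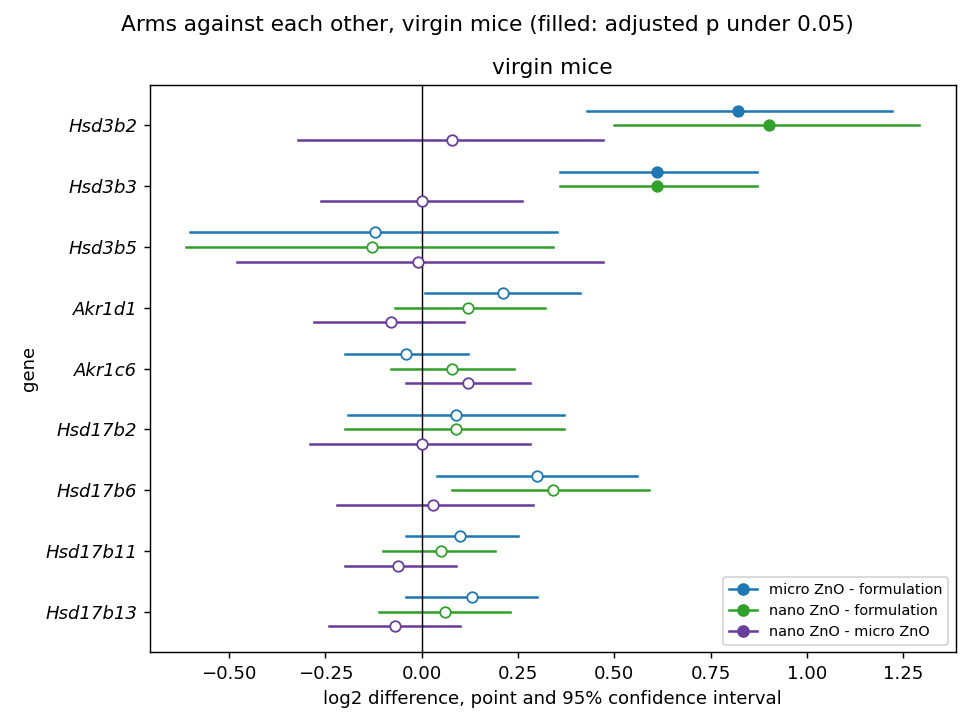
Log2 difference between sunscreen arms in virgin mice (horizontal axis) with its 95% confidence interval; filled points passed an adjusted p of 0.05. Hsd3b2 and Hsd3b3 are filled for both particle arms against formulation, and nano ZnO against micro ZnO is open for all 9 genes.

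In pregnant mice no member passed the test in any arm. With the formulation limma called 0 of 9 members, with 2 at an unadjusted p under 0.05, where 0.0598% of probe sets were called. With micro ZnO it called 0, with 3 at an unadjusted p under 0.05, against 0.107%. With nano ZnO it called 0, with 1 at an unadjusted p under 0.05, against 0.0214%. So few probe sets were called in these arms that a count of 0 among 9 is near the background. The median change of the members was -0.17, -0.29 and -0.23, beside 0.00, 0.00 and 0.01 over all probe sets. Groups without overlap numbered 0 of 9 with the formulation and 0 with micro ZnO, against 2.36% and 1.34% of probe sets.

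Hsd3b2 had the largest changes of the members. Its signals in the 5 untreated pregnant mice were 4.79, 4.57, 4.81, 5.13 and 4.58. With the formulation they ran from 3.72 to 4.70 (median 4.36), and with nano ZnO from 3.65 to 4.24 (median 4.00). The 5 micro ZnO mice had 4.48, 4.78, 2.97, 3.82 and 4.29. Formulation and micro ZnO overlapped the untreated mice, and all 6 nano ZnO mice lay below them, where 1.29% of probe sets had groups without overlap in either direction. The changes were -0.45 ± 0.22, -0.71 ± 0.23 and -0.83 ± 0.22 (limma, adjusted p = 0.408, 0.294 and 0.224). For nano ZnO the call depended on which arrays set the spread. It was made in a fit of the 2 groups alone (-0.83 ± 0.12, adjusted p = 0.0142) and without micro ZnO arrays 3 and 4 (-0.83 ± 0.15, adjusted p = 0.0218).

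Those 2 arrays also set most micro ZnO values. Without them the change with micro ZnO was -0.26 ± 0.18 in place of -0.71 for Hsd3b2, 0.09 ± 0.20 in place of -0.41 for Hsd3b3, 0.09 ± 0.13 in place of -0.29 for Akr1d1 and -0.04 ± 0.16 in place of -0.36 for Hsd17b2. For Hsd3b5 the value stayed near, at -0.41 ± 0.18 in place of -0.47. The adjusted p was 0.999 for each of these (limma). Array 3 of that group had the lowest Hsd3b3 signal of the pregnant experiment at 5.69, where the other 4 arrays of the group lay between 7.72 and 8.20.

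Hsd17b2 in pregnant mice changed by -0.36 ± 0.17 with the formulation and -0.23 ± 0.17 with nano ZnO (limma, adjusted p = 0.389 and 0.628). Hsd3b5 changed by -0.32 ± 0.15 with the formulation and -0.29 ± 0.15 with nano ZnO (limma, adjusted p = 0.388 and 0.492), at signals of 3.31 or below. Comparisons of the arms with each other gave 0 member calls, with 0 members at an unadjusted p under 0.05 and 0% of probe sets called in each of the 3 (limma).
Neutrophil markers were higher in each pregnant arm, by 0.49, 1.22 and 0.79, and endothelial markers differed by -0.38 with the formulation (exact permutation test, adjusted p = 0.0173, 0.0272, 0.0173 and 0.0173). Stellate cell markers differed by -0.16 with the formulation and hepatocyte markers by 0.08 with micro ZnO (exact permutation test, adjusted p = 0.0390 and 0.0448). With the median of the markers the neutrophil call with nano ZnO and the endothelial, stellate and hepatocyte calls were lost. Their part in the values was not tested.

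Whether the response differed between the experiments was tested as an interaction, in which a constant offset of either experiment cancels. For the formulation limma called 1 of 9 members, Hsd3b2, where 0.145% of probe sets were called and 0.0769% called higher. Its response was 1.46 ± 0.31 less negative in pregnant than in virgin mice (limma, adjusted p = 0.0241). The call was lost when any of 8 single arrays was left out and with the array interquartile range as a covariate (1.35, adjusted p = 0.0842), with the value staying between 1.35 and 1.46 in the former fits. Hsd3b2 had a mean of 7.33 in untreated virgin mice, whose array medians were 4.66 to 4.77. In untreated pregnant mice it was 4.78, with array medians of 3.99 to 4.06, and Hsd3b5 was 3.00. Whether such low starting signals limited a further fall was not tested. For the micro ZnO and nano ZnO arms limma called 0 members, with 1 and 2 at an unadjusted p under 0.05, where 0.0470% and 0.0427% of probe sets were called. The interaction of Hsd3b5 was 0.97 ± 0.29, 0.94 ± 0.30 and 1.12 ± 0.29 in the 3 arms (limma, adjusted p = 0.208, 0.337 and 0.267). The other members were not shown to respond differently in the experiments, and not all of their interactions had the same sign. That of Akr1d1 was -0.33 ± 0.21 with micro ZnO, where its change was 0.04 in virgin and -0.29 in pregnant mice.

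Untreated pregnant and untreated virgin mice were set side by side after quantile normalization of all 46 arrays together. Pregnancy and experiment cannot be told apart in this comparison. Limma called 5 of 9 members, all lower in pregnant mice, where 31.8% of probe sets were called and 17.8% called lower. On this joint scale Hsd3b2 had a mean of 5.12 in pregnant and 7.06 in virgin mice, a difference of -1.94 ± 0.22 (limma, adjusted p = 7.36e-09). Hsd17b13 differed by -1.03 ± 0.18 and its neighbour Hsd17b11 by -0.91 ± 0.11 (limma, adjusted p = 2.48e-05 and 1.91e-08).

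These differences depended on the scale in part. Hsd3b2, Hsd3b5, Hsd17b11 and Hsd17b13 were lower with each of 3 normalizations, at -2.56, -1.27, -1.37 and -1.43 on the deposited scale, where the median probe set differed by -0.61, and at -1.86, -0.58, -0.67 and -0.74 after each array's median was taken off. Akr1c6 differed by -0.28 ± 0.10 (limma, adjusted p = 0.0340) on the joint scale and by 0.00 ± 0.12 with the array median taken off. Hsd3b5 differed by -0.55 ± 0.22 on the joint scale (limma, adjusted p = 0.0494), and by -0.03 ± 0.16 without untreated virgin arrays 3 and 5. Hsd17b6 was 0.41 ± 0.15 higher with the array median taken off (limma, adjusted p = 0.0309), 0.13 ± 0.15 on the joint scale and -0.29 ± 0.15 as deposited. Hsd3b3, Akr1d1 and Hsd17b2 were called on the deposited scale and not on the others. Hsd3b3 (-0.42 on the joint scale, adjusted p = 0.157) was also called in a fit of the 2 groups alone and without pregnant micro ZnO arrays 3 and 4 (limma, adjusted p = 0.0155 and 0.0283).

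**Figure D4:**
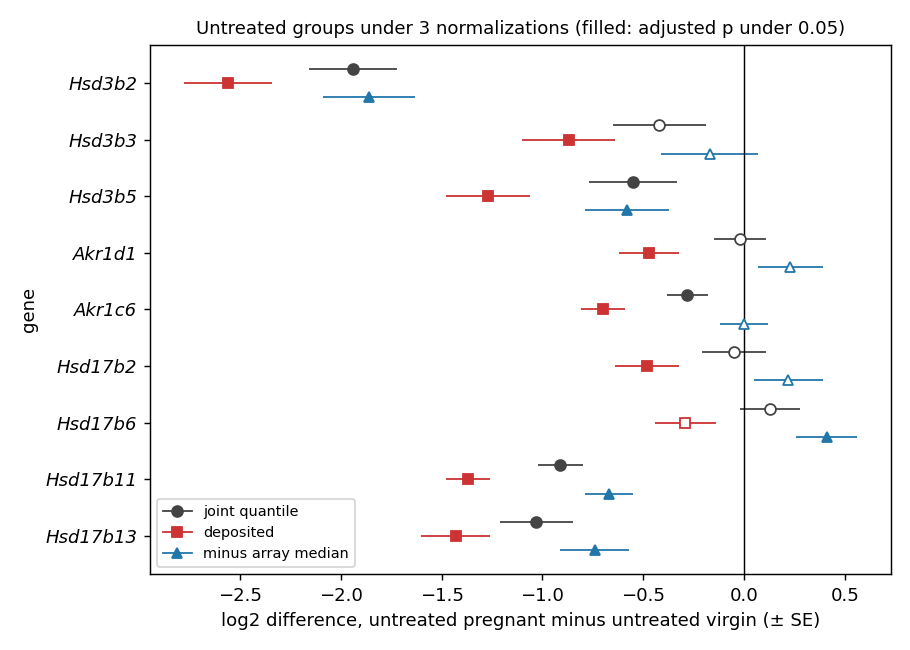
Log2 difference of untreated pregnant minus untreated virgin mice (horizontal axis, bars are SE) for each gene under joint quantile normalization, as deposited, and with each array's median taken off; filled points passed an adjusted p of 0.05. Hsd3b2, Hsd3b5, Hsd17b11 and Hsd17b13 lie below 0 and are filled in all 3, and Hsd17b6 changes side.

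The order of the arms differed between members. For Hsd3b2 and Hsd3b3 the order of virgin means was untreated, then both particle arms, then formulation, and the particle arms did not differ beyond their spread. For Hsd3b5, Akr1c6 and Hsd17b2 untreated mice came first, and the 3 sunscreen arms did not differ beyond their spread. For Akr1d1, Hsd17b6 and Hsd17b13 no step of the order passed the test. In pregnant mice no step passed it for any member.

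Other enzymes of steroid metabolism gave a mixed picture. Of 30 other steroid dehydrogenases and reductases, 27 were measured. With the formulation 2 rose and 8 fell in virgin mice, with a median change of -0.17. The largest falls were those of Akr1c20 (-0.48 ± 0.09), which lies next to Akr1c6, Akr1c14 (-0.46 ± 0.11), Hsd17b12 (-0.43 ± 0.08) and Akr1c19 (-0.41 ± 0.11), and the rises were Rdh9 (0.36 ± 0.13) and Hsd11b2 (0.30 ± 0.09). With micro ZnO 1 rose and 3 fell, and with nano ZnO 3 rose and 2 fell, with medians of 0.04 and -0.01. Over all probe sets 26.5%, 4.43% and 11.9% were called in these arms, and 15.0%, 2.80% and 7.18% were called lower. Hsd3b7, which acts in bile acid synthesis, fell in all 3 arms, by 0.39 ± 0.10, 0.60 ± 0.10 and 0.52 ± 0.10 (limma, adjusted p = 0.00752, 0.00125 and 0.00264). Hsd3b6, the next gene of the cluster, changed by -0.06 ± 0.11, 0.06 ± 0.11 and 0.16 ± 0.11 and was not called. In pregnant mice limma called 0 of the 27 in each of the 3 arms, where 0.0598%, 0.107% and 0.0214% of probe sets were called. The list was chosen with results of these data known.

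Of 14 steroid hydroxylases and conjugating enzymes 11 were measured, with 1 higher and 4 lower with the formulation, 2 and 2 with micro ZnO and 3 and 4 with nano ZnO in virgin mice. Cyp39a1, an oxysterol hydroxylase, rose by 1.08 ± 0.18, 1.46 ± 0.18 and 1.70 ± 0.18, and Cyp7b1, another oxysterol hydroxylase, fell by 1.00 ± 0.16, 0.66 ± 0.16 and 0.63 ± 0.16. Sult1e1, the oestrogen sulfotransferase, rose with nano ZnO in virgin mice (2.00 ± 0.49) and with formulation and micro ZnO in pregnant mice (3.02 ± 0.54 and 3.09 ± 0.56; limma, adjusted p = 0.0101, 0.0285 and 0.0192), and differed by 2.74 ± 0.54 with nano ZnO in pregnant mice (adjusted p = 0.0751). Of 15 measured genes that are higher in male than female mouse liver, 11, 10 and 11 fell in the 3 virgin arms and 0 rose, and 1 fell in each pregnant arm. Cyp7b1, Cyp2d9, Ugt2b1 and Ugt2b38 belong to both of these lists. Slco1a1, an organic anion carrier of that list, fell by 4.02 ± 0.34, 3.74 ± 0.34 and 3.68 ± 0.34. Of 12 measured genes higher in females, 1, 3 and 4 rose and 3, 1 and 3 fell, and Cyp3a16 and Cyp3a44 of these are also among the hydroxylases. Of 11 measured hormone receptors and related regulators, 0 rose and 5 fell with the formulation, 1 rose and 1 fell with micro ZnO, and 1 rose and 2 fell with nano ZnO in virgin mice. Stat5b, which transmits the growth hormone signal, fell by 0.41 ± 0.11, 0.59 ± 0.11 and 0.53 ± 0.11 (limma, adjusted p = 0.00766, 0.00216 and 0.00315). Nr1i3, a nuclear receptor for foreign compounds, rose by 0.66 ± 0.12 with micro ZnO and 0.61 ± 0.12 with nano ZnO (limma, adjusted p = 0.00229 and 0.00272). The 3 arms share their untreated mice here as well. Beside these list counts, 26.5%, 4.43% and 11.9% of all probe sets were called in the virgin formulation, micro ZnO and nano ZnO arms. Those called lower made up 15.0%, 2.80% and 7.18%. In the pregnant arms 0.0598%, 0.107% and 0.0214% were called.

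The genes most like each member were taken by Pearson's r over the 46 arrays after each experiment's mean was removed, as a description, since all values share arrays and arms. They were Slc22a30, Ces3b and Abhd18 for Hsd3b2 (0.81, 0.81 and 0.80), Hpgd, Aldh8a1 and Timd2 for Hsd3b3 (0.87, 0.82 and 0.81), and Slco1a1, Slc39a4 and Nudt7 for Hsd3b5 (0.77, 0.76 and 0.76). For Akr1c6 they were Fabp2, Akr1c20 and Nudt16l1 (0.86, 0.84 and 0.83), and for Hsd17b2 Adipor2, Rnf103 and Galt (0.82, 0.81 and 0.81). For Akr1d1 they were Gsta3, Reep6 and Mfsd4b1 (0.83, 0.83 and 0.81) and for Hsd17b6 Igfbp2, Furin and Ttpa (0.73, 0.67 and 0.65). For Hsd17b11 they were Rmnd5a, Zadh2 and Slc2a2 (0.79, 0.78 and 0.77), and for Hsd17b13 Tm4sf4, Rarres2 and Sox9 (0.79, 0.78 and 0.77). With each group's mean removed instead, which leaves the spread between mice of a group, Hpgd stayed first for Hsd3b3 at 0.87, and none of the 3 genes named for Hsd3b2 or for Hsd3b5 stayed among the first 3.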

How the data were processed

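The authors deposited 1 table of log2 signals, 46 arrays by 35512 probe sets, made with RMA (version not given), per the submitters' processing notes. Whether the 2 experiments were normalized together is not given in the sources used here. All columns were used (0 left out). A platform annotation gave 1 symbol to 21789 probe sets, several to 1621 and none to 12102, and the 23410 with a symbol were tested.

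Within each experiment a linear model of the 4 arms was fitted with limma 3.58.1 in R 4.3.3 (lmFit, eBayes). A model of all 8 groups gave the interactions, and the same model after joint quantile normalization gave the untreated difference. All tests were two-sided. Benjamini-Hochberg adjustment ran over the 23410 tested features, comparison by comparison, and a call needed an adjusted p under 0.05. Unless SD is named, ± gives the SE of a change. Mean log2 levels of marker lists were compared by exact permutation tests, adjusted over 48. The clock score averages 16 clock genes centred on each experiment's mean, with 4 signs turned. Promoter windows came from RefSeq (GRCm38.p6) for 8 of the 9 members and were aligned with Biopython 1.88, and gene order came from a RefSeq gene table. Plots used matplotlib 3.10.9 under Python 3.11.15. The fit was tested on simulated data.

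The members and lists were chosen with earlier results of these data known. Named are the members, up to 4 called rises and falls of the other dehydrogenases, up to 2 called genes of each other list with Slco1a1, A1bg, Dbp and Arntl as reference genes, and the 3 genes most like each member. The text prints part of these. Hsd3b6 was named after its values were seen.

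Alternatives covered the dim filter, probe sets tested, moderation, array weights, normalization, samples in the fit, replicate number as a block, array width, clock score, a fold of 1.5 and left-out arrays.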

Additional observations from a re-analysis of the deposited data

Results flagged for a closer look

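Dixon's criterion was applied to 72 sets of 5 or 6 arrays, 1 for each gene and group, and 4 held an array apart from the rest, where chance alone sets apart about 1 in 20. Hsd3b3 was 7.14 in pregnant formulation array 6, below the next array at 7.62. It was 5.69 in pregnant micro ZnO array 3, one of the 2 arrays of that group that stood apart over all genes. Hsd17b11 was 7.21 in untreated pregnant array 4, below the next at 7.54. Hsd17b13 was 11.32 in virgin nano ZnO array 6, above the next at 11.18.

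The response of Hsd3b2 to the formulation differed between the experiments, by 1.46 ± 0.31 on the log2 scale (limma interaction, adjusted p = 0.0241), with all 6 virgin mice and all 6 pregnant mice below the mean of their untreated group. This call was fragile. It was lost without any of several single arrays, with the array interquartile range as a covariate and with replicate number as a block.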

How the results depend on the processing

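Of 3368 alternative values of single members, 3296 kept their side of the threshold, 62 lost a call, 10 gained one and 0 of the calls changed direction. Most of the 3368 values came from results without a call in the main fits, which could not lose one. The 62 lost calls are therefore to be set against a smaller number than 3368. The direction of values without a call was not compared, and some of these changed sign.

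Deviations of same-numbered arrays had a median r of -0.13 over 36 pairs in virgin and 0.02 over 31 pairs in pregnant mice. For differently numbered arrays it was 0.04 and -0.01. In pregnant mice 12 of 31 same-numbered pairs had r over 0.1, against 27 of 150 others, and in virgin mice 1 of 36 against 61 of 180. The numbers were not taken as pairs in the main fits. With the replicate block, the number of members with a different response to formulation was 0 (Hsd3b2 1.51, adjusted p = 0.0704), and Hsd17b11 lost its call with the formulation. The block changed no other member's call. Probe sets called fell to 469 from 1036 with micro ZnO, 1727 from 2796 with nano ZnO, 974 from 1599 for micro ZnO against formulation and 344 from 760 for nano ZnO against formulation in virgin mice, and in the small counts to 8 from 14 (pregnant formulation), 11 from 34 and 6 from 10 (interactions of formulation and nano ZnO).

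Members called fell to 1 for virgin nano ZnO against formulation and rose to 1 for pregnant nano ZnO in fits of the compared groups alone. With array interquartile range as a covariate they were 0 for both particle arms against formulation and 0 for the formulation interaction. With the clock score as a covariate they were 0 for virgin micro ZnO and 0 for virgin nano ZnO, with larger standard errors. At 1.5-fold or more they were 3 for virgin micro ZnO, 3 for virgin nano ZnO and 3 for the untreated difference. Without pregnant micro ZnO arrays 3 and 4 the count for pregnant nano ZnO was 1. On deposited values it was 8 for the untreated difference. Without untreated virgin arrays 3 and 5, an alternative chosen after seeing the data, it was 0 for the formulation interaction and 3 for the untreated difference. With 1 array left out at a time, the formulation interaction ranged from 0 to 1 (0 without virgin formulation array 3, untreated virgin array 3 or 4, pregnant formulation array 1 or 5, or untreated pregnant array 1, 2 or 5), and the untreated difference from 3 to 5 (3 without untreated virgin array 5). The causes were not tested.

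Counts over all probe sets moved more. The formulation count of 6203 in virgin mice was 3971 after further quantile normalization, 179 with interquartile range, 2365 with the clock score and 352 at 1.5-fold. Under the latter 3 the count was 529, 20 and 162 for micro ZnO and 966, 6 and 244 for nano ZnO. Without untreated virgin arrays 3 and 5 it was 317 and 1398. Micro ZnO against formulation gave 214 with interquartile range and 144 at 1.5-fold, and nano ZnO against formulation gave 189 in the compared groups alone, 156 with interquartile range, 356 with the clock score and 68 at 1.5-fold. The untreated count of 7442 was 4355 without dim probe sets, 1106 at 1.5-fold and 21390 as deposited. Over all alternatives but left-out arrays, pregnant counts of 14, 25 and 5 ranged from 4 to 53, 8 to 38 and 4 to 13, and without pregnant micro ZnO arrays 3 and 4 they were 41, 7 and 31. Over the same alternatives interaction counts of 34, 11 and 10 ranged from 11 to 45, 5 to 12 and 6 to 11, and pregnant nano ZnO against formulation gave 1 in place of 0 after further quantile normalization. With 1 array left out, counts ran from 531 to 1115 for virgin micro ZnO, 1610 to 3473 for virgin nano ZnO, 847 to 1812 and 251 to 1115 for the particle arms against formulation, and 11 to 138 for pregnant micro ZnO.

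The filter on dim probe sets left out Hsd3b5. Each member had 1 probe set of its symbol alone, so no other was tried. A further 2 that carry Hsd3b5 with other symbols were not used. The covariates, the block and normalization within experiments were not run for the untreated difference. Of 48 marker comparisons, 38 kept their side of the threshold with the median of the markers. Signal over background limits Hsd3b5 most.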
